A study of Mus musculus with 11 samples.

Results

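The genes described here are 45 genes of DNA replication and S phase, measured in cultured KP1 cells 24 h after irradiation with 5 Gy. They were chosen by name for their roles in origin licensing, the replisome and nucleotide supply. No measured value entered that choice, although earlier results of these data were known when it was made. They are 45 of 35084 gene symbols to which the deposited values could be summed. KP1 is an Rb and p53 mutant mouse small cell lung cancer (SCLC) line of the neuroendocrine subtype. Bulk RNA sequencing gave 5 libraries: 2 from untreated cells (control replicates 2 and 3) and 3 from irradiated cells (irradiated replicates 1, 2 and 3), with the same line, medium and collection in both groups. The labels do not say that the libraries came from separate cultures, so that p-values measure the spread between these libraries, which may be technical. The 6 single-cell samples of leukocytes from tumors were not analysed here. In bulk RNA, fewer cells in S phase and less RNA per cell cannot be told apart.

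Replication starts at origins bound by the origin recognition complex, where Cdc6 and Cdt1 load the ring-shaped MCM helicase in G1 phase. In S phase Cdc45 and the GINS complex join MCM to form the active helicase, polymerase alpha with primase lays down primers, replication factor C loads the sliding clamp PCNA, and polymerases epsilon and delta copy the leading and lagging strands. Many of these genes are transcribed under E2F factors, which the Rb protein restrains, and proliferating SCLC cells without Rb express them at high levels.

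To show the sequences from which these genes are transcribed, the RefSeq promoters of the members on GRCm38.p6 were searched for the E2F words TTTCCCGC, TTTCGCGC, TTTGCCGC and TTTGGCGC on both strands, from 250 bases before to 50 bases after the annotated start. Promoters were found for 36 of the 45 members, and 14 of those 36 genes (38.9%) held an E2F word, against 4.59% of the tested genes with a promoter and 2.6% of all genes with one. An E2F word stood in 1 of 5 members with a promoter that rose, in 2 of 5 that fell and in 11 of 26 that were not called. The CCAAT word ATTGG stood in 66.7% of the members with a promoter, 43.1% of the tested genes and 41.1% of all genes with one. For the CHR words TTTGAA and TTCGAA the members' share of 19.4% lay between the 16.4% of the tested genes and the 21.7% of all genes. The words were searched separately on both strands and may overlap. For printing, the word had to lie before the start, and bases after the start had to lie in a GENCODE M21 transcript of the gene. Pold1, which held an E2F word and had a smaller p than Uhrf1, did not meet these conditions. The 3 members with the smallest p in the irradiated against control comparison among those that met them were Pola1 (chrX:93632156-93632405, minus strand), Rfc3 (chr5:151651209-151651238, minus strand) and Uhrf1 (chr17:56304063-56304312, plus strand). Their sequences are shown 5′ to 3′ up to the annotated start, with the E2F word in capitals. The word began 138 bases before the RefSeq start of Pola1, 10 before that of Rfc3 and 185 before that of Uhrf1. In GENCODE M21 Uhrf1 starts further upstream, at position 56303321, so that its printed window lies inside the gene, with 0 exonic bases. For Rfc3 only the last 30 bases are shown, and all 30 are exonic in the GENCODE M21 annotation used for the counts, in which the gene starts further upstream, so that by that annotation the word lies after the start.
Pola1: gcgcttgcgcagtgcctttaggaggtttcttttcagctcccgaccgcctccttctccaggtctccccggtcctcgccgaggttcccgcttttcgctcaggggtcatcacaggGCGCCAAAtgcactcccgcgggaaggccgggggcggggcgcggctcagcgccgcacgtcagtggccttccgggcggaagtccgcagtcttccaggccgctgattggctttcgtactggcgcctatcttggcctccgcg
Rfc3: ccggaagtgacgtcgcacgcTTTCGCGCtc
Uhrf1: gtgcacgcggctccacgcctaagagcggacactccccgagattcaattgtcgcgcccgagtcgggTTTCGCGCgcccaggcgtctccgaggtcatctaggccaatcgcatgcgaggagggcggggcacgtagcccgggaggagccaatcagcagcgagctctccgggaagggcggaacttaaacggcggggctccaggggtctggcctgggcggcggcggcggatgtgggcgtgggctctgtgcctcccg

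Of these 3 genes Pola1 fell after irradiation, Rfc3 rose and Uhrf1 did not pass the test. A match to these words is a description of the sequence alone.

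The libraries held 21185956 to 31036317 reads, and all 45 members passed the filter on low counts that left 14099 genes. Of the markers fixed for the cell types, the neuroendocrine gene Chga lay between 291 and 472 CPM (reads scaled by library size and TMM factor) in the 5 libraries, while Ptprc, the pan-leukocyte marker, stayed at or below 0.840 CPM and none of the 6 leukocyte markers exceeded 1.91 CPM. Pdgfra, from the fibroblast list, lay between 94.3 and 130 CPM, whereas Col1a1 and Dcn did not exceed 1.16 and 0.119 CPM. Reads came from longer transcripts in the controls, where transcript length averaged over reads was 5463 and 4729 bases, than in the irradiated libraries, where it was 3715, 3625 and 3998 bases. By the design, this difference and that between irradiated and control cells cannot be told apart, and length-adjusted values are given at the end.

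Replication genes moved in both directions after irradiation, with no common shift. The members together took 0.616% and 0.698% of the reads of the control libraries and 0.724%, 0.688% and 0.641% of those of the irradiated libraries, and these ranges overlapped. On the TPM scale, which divides by transcript length, their sum was 5698 and 6313 in control and 5539, 5015 and 4972 in irradiated libraries, the latter all below both controls. In edgeR's quasi-likelihood test, with p-values adjusted over all genes by the Benjamini-Hochberg method, 7 members (15.6%) were higher and 6 (13.3%) lower in irradiated cells at an adjusted p under 0.05, against 12.7% and 13% of all genes tested. The shares called were thus near those of all genes. The genes that rose were Rpa3, Gins2, Pcna, Gins1, Rpa2, Rfc3 and Rfc4, and those that fell were Pole, Rfc1, Pola1, Mcm10, Pold1 and Rrm1. The median log2 fold change of the members was 0.05, against 0.02 over all genes tested, and the members ranged from −1.51 for Pole to 1.28 for Rpa3. One member, Pole, passed the study's thresholds of a log2 fold change beyond 1.5 in either direction with an adjusted p under 0.05, as did 3.55% of all genes. Its value lay at the threshold: without control replicate 2 the log2 fold change of Pole was −1.155, and without irradiated replicate 2 it was −1.428, neither past it. Without irradiated replicate 3, 2 members passed the thresholds, as did 316 higher and 256 lower genes of 13858. The 3 irradiated libraries lay above both controls in CPM for 13 members (28.9%) and below both for 8 (17.8%), against 30.1% and 29.3% of all genes. The split of calls depended on the scale: limma on log2(TPM + 1) called 1 member higher and 10 lower, against 4.98% and 19.1% of all genes, whose median was −0.24. On log2(TPM + 0.1) limma called 2 higher and 9 lower, against 5.19% and 18.8% of all genes. An adjustment for GC content gave 11 higher and 5 lower, against 12.1% and 12% of all genes.

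**Figure D1:**
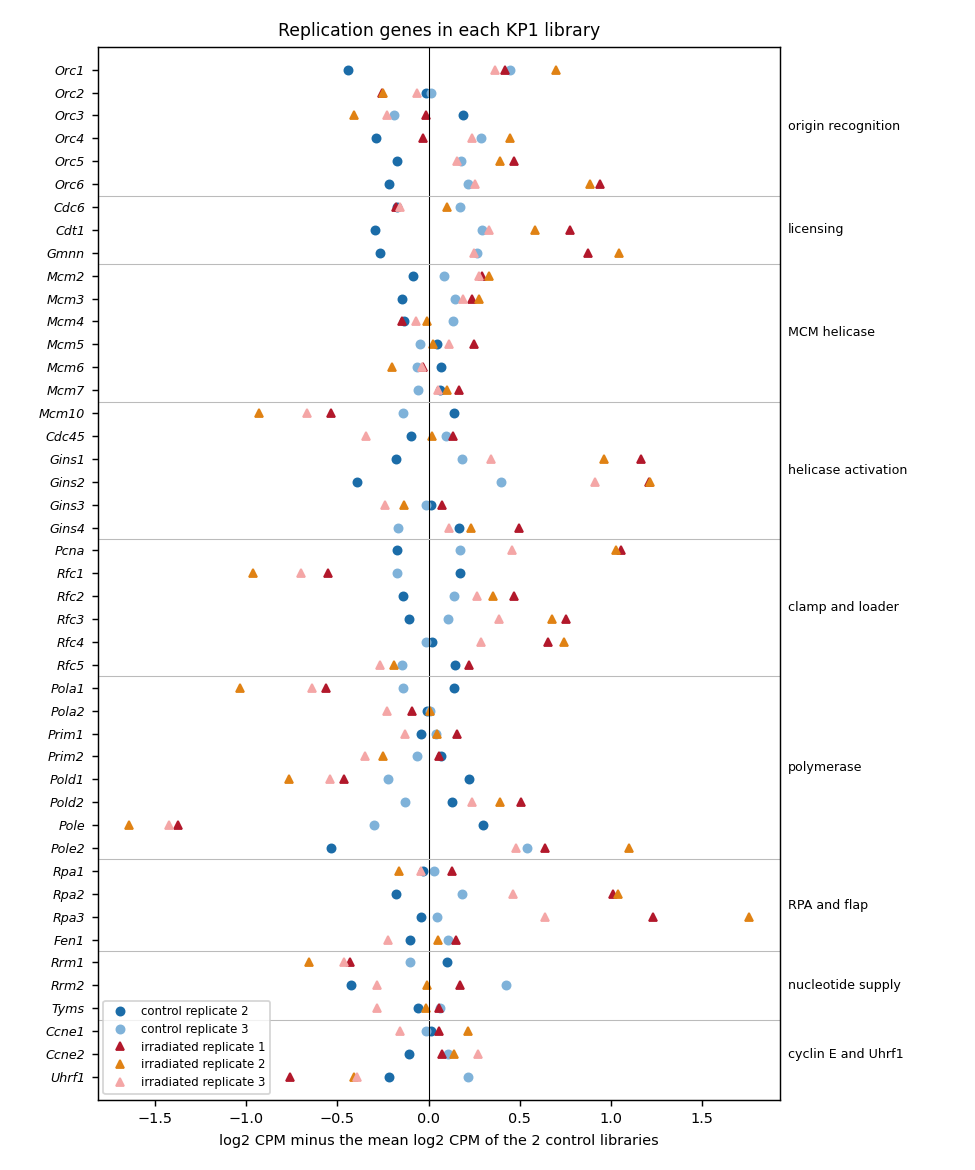
Each row is 1 of the 45 replication genes, grouped by role, and each point 1 library, plotted as log2 CPM minus the mean log2 CPM of the 2 control libraries (circles, control; triangles, irradiated). The triangles lie left of both circles for Pole, Rfc1, Pola1, Mcm10, Pold1 and Rrm1 and right of both for Rpa3, Gins2, Pcna, Gins1, Rpa2, Rfc3 and Rfc4, whereas those of Mcm4 to Mcm7 lie near the controls.

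Below, CPM values are listed for control replicates 2 and 3 and then for irradiated replicates 1, 2 and 3. CPM compares a gene between libraries, and levels of different genes are compared only in TPM. Control levels in TPM ran from 7.26 ± 1.4 (SD, n = 2) for Orc1 to 398 ± 11.1 (SD, n = 2) for Mcm6. In irradiated cells the most abundant member was Pcna, at 475 ± 88.2 TPM (SD, n = 3), against 338 ± 79.4 (SD, n = 2) in control cells.

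Of the 9 genes that mark origins and license them, 6 had a log2 fold change above 0 and none passed the edgeR test. At an unadjusted p under 0.05 there were 3 (Orc6, Cdt1 and Gmnn, all higher). DESeq2 called Orc6 and Gmnn higher, and limma on log2(TPM + 1) called Orc2 and Orc3 lower. The 6 subunits of the origin recognition complex had a median log2 fold change of 0.27. Orc6, its smallest subunit, had the largest value: 42.4 and 57.4 CPM in control and 94.8, 91.2 and 58.9 CPM in irradiated libraries, a log2 fold change of 0.71 ± 0.24 (SE; adjusted p = 0.059). Irradiated replicate 3 lay just above the higher control. Orc3 had the smallest value of the complex, with 63.3 and 48.7 CPM against 55, 41.9 and 47.3 CPM and a log2 fold change of −0.22 (adjusted p = 0.391). Orc1, the largest subunit and an ATPase, was counted in only 139 to 240 reads per library, and its log2 fold change of 0.43 had a 95% confidence interval from −0.28 to 1.15. Orc2, Orc4 and Orc5 lay between −0.19 and 0.33.

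Among the licensing factors, Gmnn, encoding geminin, the inhibitor of Cdt1, had the largest value, with 15.7 and 22.8 CPM in control and 34.7, 39 and 22.5 CPM in irradiated libraries (log2 fold change 0.74, adjusted p = 0.078). Irradiated replicate 3 lay at the level of the higher control, so that the groups overlapped. Cdt1, the MCM loading factor itself, measured 141 and 212 CPM against 296, 259 and 217 CPM (log2 fold change 0.54, adjusted p = 0.095). Here all irradiated libraries were above both controls, by a small margin in replicate 3. Cdc6, the ATPase that works with Cdt1, had the lowest value of these 3 genes, at 51.4 and 65.4 CPM against 51.3, 62.3 and 52 CPM (log2 fold change −0.08, adjusted p = 0.751).

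Of the role groups, the MCM helicase genes covered the narrowest range of log2 fold changes, from −0.09 to 0.30. None of Mcm2 to Mcm7 had an adjusted p under 0.05 in edgeR or DESeq2, and at an unadjusted p under 0.05 there were 0 and 1. The widest change was that of Mcm2, with 385 and 433 CPM in control and 500, 513 and 495 CPM in irradiated libraries, a log2 fold change of 0.30 with a 95% confidence interval from −0.05 to 0.64 (adjusted p = 0.171). Its irradiated libraries all lay above both controls, as did those of Mcm3. Mcm6 had the smallest value, with 526 and 480 CPM against 491, 436 and 489 CPM, a log2 fold change of −0.09 with an interval from −0.44 to 0.26. The 6 intervals together ran from −0.44 to 0.64, so that a log2 fold change of 1 in either direction lies outside them for every MCM subunit. Scaled per length, the summed level of the 6 genes was 1543 and 1676 TPM in control and 1419, 1274 and 1419 TPM in irradiated libraries, and limma on log2(TPM + 1), where the median of all genes was −0.24, called Mcm6 lower.

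Of the 6 genes that turn the loaded helicase into an active one, 2 rose and 1 fell. Gins2, a subunit of the GINS complex (chr8:120578633-120589304 on GRCm38), rose from 35.8 and 61.9 CPM in control to 109, 109 and 88.6 CPM in irradiated libraries, a log2 fold change of 1.06 ± 0.24 (SE; adjusted p = 0.018). Gins1 (chr2:150905400-150931280) rose from 13.8 and 17.7 CPM to 35, 30.4 and 19.8 CPM (log2 fold change 0.85 ± 0.27, adjusted p = 0.048). In both genes every irradiated library was above both controls, with replicate 3 the lowest of the 3. The other subunits of the same complex did not pass the test: Gins3 measured 24.8 and 24.4 CPM against 25.8, 22.3 and 20.8 CPM (log2 fold change −0.10), and Gins4 had a log2 fold change of 0.28. Per length, the ratio of Gins2 to Gins3 was 1.54 and 1.37 in control and 4.29, 4.61 and 3.38 in irradiated libraries, a ratio chosen after the values were seen. Mcm10, which helps the helicase to open the origin (chr2:4989714-5012791), fell from 87.9 and 72.3 CPM to 55.1, 41.8 and 50.3 CPM, a log2 fold change of −0.71 ± 0.17 (SE; adjusted p = 0.022), with no overlap between the groups. Cdc45, the helicase cofactor, had a log2 fold change of −0.05 (adjusted p = 0.849).

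The exons of Gins2 overlap those of Gse1 on the opposite strand by 2758 bases, and Gse1 had 552% as many reads as Gins2. Gse1 moved the other way, from 18354 and 16280 reads in control to 5859, 6648 and 9345 reads in irradiated libraries (log2 fold change −1.10, adjusted p = 0.0093). Whether the library preparation kept the strand is not given in the sources used here, so the split of reads between these genes is uncertain, and its part in the rise of Gins2 was not tested. Reads may be shared in the same way where Orc6 overlaps Vps35, Rfc4 overlaps Eif4a2, Orc4 overlaps Acvr2a and Mbd5, Cdc45 overlaps Ufd1 and Rfc5 overlaps Wsb2. These overlaps span 78 to 499 bases of exon, and each of these partner genes had more reads than the member.

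Pcna and 2 of the small subunits of its loader rose, and the large subunit of the loader fell. Pcna, the clamp that holds polymerases on DNA (chr2:132249162-132253314), measured 183 and 232 CPM in control and 429, 421 and 283 CPM in irradiated libraries, a log2 fold change of 0.86 ± 0.22 (SE; adjusted p = 0.027). All irradiated libraries lay above both controls. A pseudogene, Pcna-ps2, was assigned 555 and 824 reads in control and 1334, 1297 and 918 in irradiated libraries, against 5225 and 6194 and then 10769, 9215 and 7768 for Pcna, so the division of reads between the pair is uncertain, though both counts were higher in every irradiated library.

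Within replication factor C, Rfc3 (chr5:151642756-151651242) rose from 33.2 and 38.5 CPM to 60.3, 57.2 and 46.8 CPM (log2 fold change 0.61 ± 0.17, adjusted p = 0.035). Rfc4 (chr16:23113943-23127737) rose from 34.3 and 33.5 CPM to 53.4, 56.8 and 41.3 CPM (log2 fold change 0.57 ± 0.18, adjusted p = 0.047). Rfc1, the large subunit (chr5:65261850-65335670), fell from 295 and 232 CPM to 178, 134 and 161 CPM, a log2 fold change of −0.74 ± 0.18 (SE; adjusted p = 0.022). None of these 3 genes overlapped between the groups. Rfc2 was above both controls in every irradiated library without passing the test (log2 fold change 0.36, adjusted p = 0.121), and Rfc5 had a log2 fold change of −0.07. Much of the signal of Rfc3 came from transcripts annotated as retaining an intron, which took 80.02% and 65.9% of its reads in control and 50.3%, 60.3% and 60.6% in irradiated libraries. The ratio of Rfc1 to Rfc4 per length was 1.93 and 1.48 in control and 0.704, 0.504 and 0.851 in irradiated libraries, again chosen after the values were seen. TPM does not remove the difference in transcript length between the groups' reads, and Rfc1 (4542 bases) was longer than Rfc4 (1215 bases). With the trend with length removed, their log2 fold changes were −0.42 and −0.03.

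The catalytic subunits of the 3 replicative polymerases fell. Pole, the leading strand polymerase epsilon (chr5:110286306-110337474), showed the widest change of all members: 301 and 198 CPM in control and 94.4, 78.1 and 91.1 CPM in irradiated libraries, a log2 fold change of −1.51 ± 0.20 (SE; adjusted p = 0.0081). The control libraries differed from each other by over 100 CPM, yet the lower of them was above every irradiated library. Per length, Pole went from 70.9 ± 18.7 TPM (SD, n = 2) in control to 21 ± 1.4 TPM (SD, n = 3) in irradiated cells. Pola1, the polymerase alpha subunit that extends primers (chrX:93304767-93632155), fell from 240 and 198 CPM to 147, 106 and 140 CPM (log2 fold change −0.74 ± 0.18, adjusted p = 0.023). Pold1, of the lagging strand polymerase delta (chr7:44532746-44548849), fell from 222 and 163 CPM to 138, 112 and 131 CPM (log2 fold change −0.60 ± 0.18, adjusted p = 0.040). Neither overlapped between the groups.

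Of the 45 members, the other subunits of these polymerases (Pola2, Pold2, Pole2, Prim1 and Prim2) did not pass the edgeR test, nor that of DESeq2, and at an unadjusted p under 0.05 Pold2 alone of these was higher. The small subunits Pold4 and Pole3, which are not members, rose and are given with the other replication genes. Among these 5 members Pole2 had the largest value, with 9.77 and 20.6 CPM against 22.1, 30.3 and 19.7 CPM (log2 fold change 0.66, adjusted p = 0.164), and the groups overlapped because control replicate 3 lay above irradiated replicate 3. Pold2 was higher in every irradiated library than in either control (log2 fold change 0.38, adjusted p = 0.109). Pola2 and the primase subunits Prim1 and Prim2, which make the RNA primers, had log2 fold changes of −0.10, 0.03 and −0.17. The catalytic subunit was lower relative to its partner, per length, in every irradiated library: the ratio of Pole to Pole2 was 6.61 and 1.98 in control and 0.906, 0.620 and 0.962 in irradiated libraries, and that of Pold1 to Pold2 was 0.768 and 0.785 against 0.390, 0.367 and 0.447. For Pola1 to Pola2 it was 1.241 and 1.010 against 0.814, 0.542 and 0.847. These ratios were also chosen after the values were seen and carry no test. TPM does not remove the difference in transcript length between the groups' reads, and each catalytic subunit had longer transcripts than its partner. With the trend with length removed, log2 fold changes were −0.79 for Pole and 0.27 for Pole2, and −0.53 for Pold1 and −0.07 for Pold2. For Pola1 and Pola2 they were alike, at −0.27 and −0.25.

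**Figure D2:**
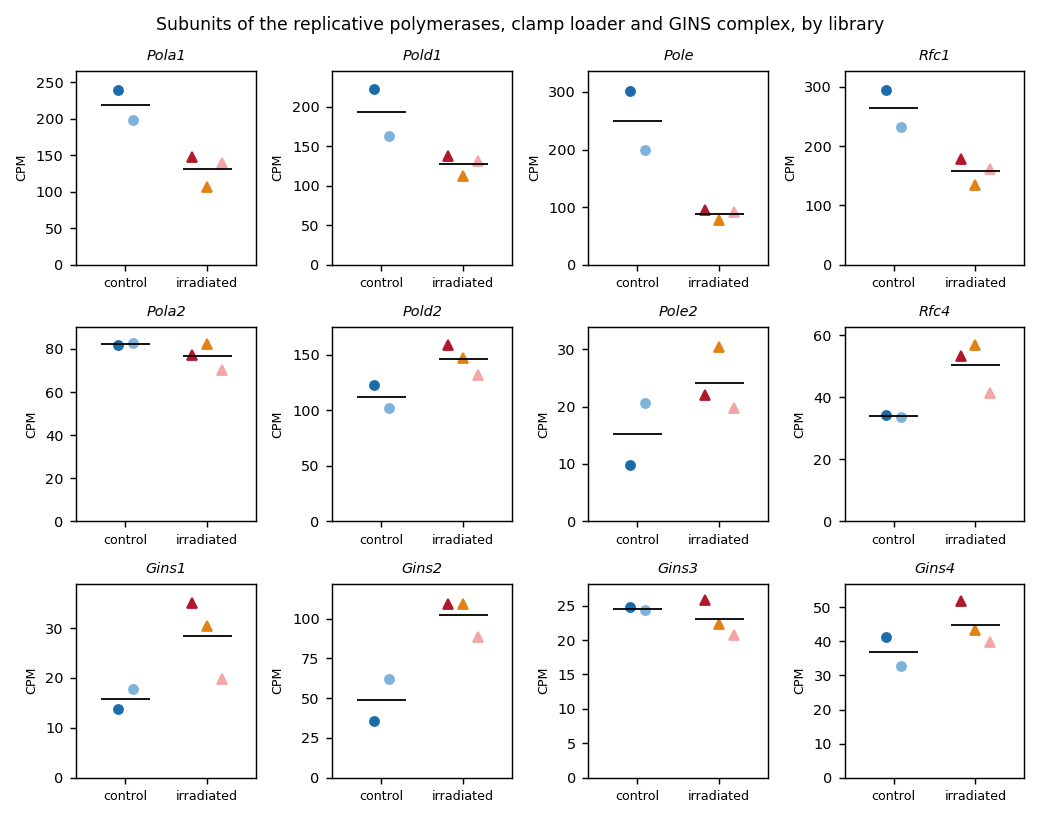
CPM of 12 subunits of the polymerases, the clamp loader and the GINS complex in each library, with control replicates 2 and 3 as circles and irradiated replicates 1, 2 and 3 as triangles, in that order, and the mean of each group as a black line. Pola1, Pold1, Pole and Rfc1 lie lower in all 3 irradiated libraries, Gins1, Gins2, Rfc4 and Pold2 lie higher, and Pola2, Pole2, Gins3 and Gins4 overlap.

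Of the proteins that coat single-stranded DNA, the small subunits rose. Rpa3 (chr6:8255936-8259173) measured 8.68 and 9.23 CPM in control and 21, 30.2 and 13.9 CPM in irradiated libraries, a log2 fold change of 1.28 ± 0.32 (SE; adjusted p = 0.025). Rpa2 (chr4:132768332-132778752), whose protein is phosphorylated when forks stall, rose from 56.3 and 72.3 CPM to 129, 131 and 87.8 CPM (log2 fold change 0.85 ± 0.22, adjusted p = 0.026). Irradiated replicate 3 was the lowest of the irradiated libraries in both genes, and in both it was above the controls. Rpa1, the large subunit that binds DNA most tightly, had 297 and 309 CPM against 331, 270 and 294 CPM, a log2 fold change of −0.02 with a 95% confidence interval from −0.37 to 0.33. Fen1, the nuclease that removes primer flaps, had a log2 fold change of 0.00 (adjusted p = 0.989).

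Nucleotide supply changed in 1 of 3 genes. Rrm1, the large subunit of ribonucleotide reductase (chr7:102441695-102469771), fell from 618 and 537 CPM to 427, 366 and 417 CPM, a log2 fold change of −0.52 ± 0.16 (SE; adjusted p = 0.044), without overlap. Rrm2, the small subunit that is made in S phase, ranged from 150 CPM in control replicate 2 to 272 CPM in control replicate 3, and its irradiated values of 227, 201 and 166 CPM lay inside that range (log2 fold change −0.09). Tyms, thymidylate synthase, had 93.8 and 102 CPM against 102, 96.8 and 80.2 CPM (log2 fold change −0.07).

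The cyclins of S phase entry did not pass the test in edgeR, DESeq2 or limma on log2(TPM + 1), with log2 fold changes of 0.05 for Ccne1 and 0.16 for Ccne2. Ccne2 measured 126 and 146 CPM in control and 143, 150 and 164 CPM in irradiated libraries. Uhrf1, which brings the maintenance methyltransferase to newly copied DNA, had 446 and 603 CPM in control and 306, 391 and 394 CPM in irradiated libraries. All its irradiated libraries were below both controls, but its log2 fold change of −0.53 ± 0.19 (SE) had an adjusted p of 0.075. DESeq2 and limma on log2(TPM + 1) called it lower.

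Longer genes tended to have lower log2 fold changes, among the members as among all genes. The median of all genes fell from each bin of length to the next, whereas that of the members did not. Across the 45 members, Spearman's rho between read-weighted transcript length and log2 fold change was −0.64 and Pearson's r with log2 length was −0.75. Over all 14099 genes rho was −0.57. These correlations are across genes of the same 5 libraries and are given as a description, since genes are not independent replicates. Of the 9 members in the shortest of 5 equal bins of all genes by length (up to 1639 bases) 5 rose and 0 fell, where 37.7% and 2.45% of all genes did, and their median log2 fold change of 0.71 was near the 0.69 of all genes in that bin. Of the 11 members in the 2 longest bins 6 fell and 1, Gins2, rose. In bin 4 the 9 members had a median of −0.52, against −0.17 for all genes of that length, and 4 of them fell, as did 12.1% of all genes there. The longest member, Pole (7092 bases), and Pola1 (5341 bases) fell in a bin in which 43.2% of all genes fell. Of the 13 members in bin 2 Rpa2 alone was called, whereas 17.6% of all genes there rose and 2.55% fell, and the members' median of −0.0039 was below the 0.32 of all genes. Of the 12 in bin 3 none was called, where 6.21% of all genes rose and 4.65% fell, and the members' median of 0.12 was above that of bin 2 and near the 0.08 of all genes.

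**Figure D3:**
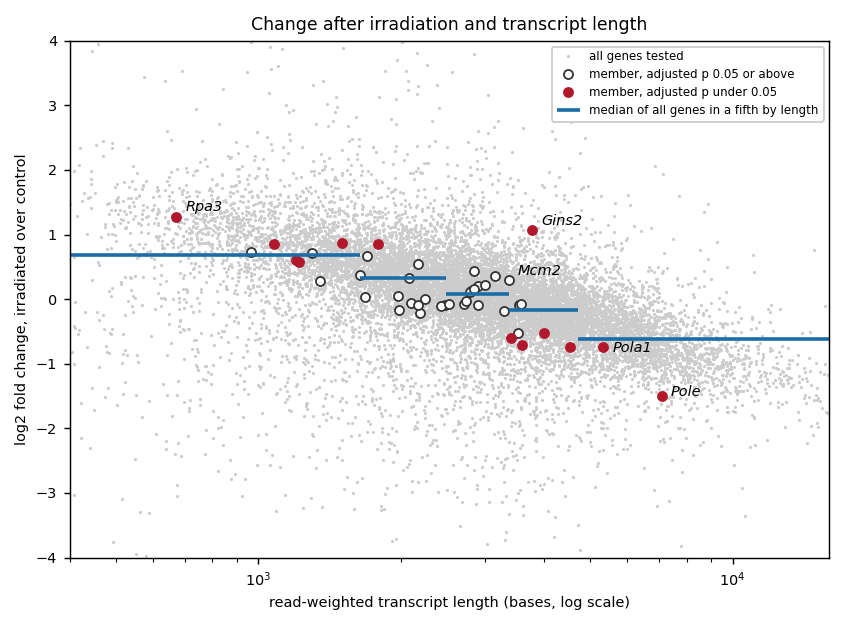
Log2 fold change in irradiated over control cells against read-weighted transcript length on a log axis, for all genes tested (grey) and the 45 replication genes (circles, filled red at an adjusted p under 0.05); blue lines are the medians of all genes in each of 5 equal bins by length, and 158 genes, none of them members, lie outside the axes. The medians of all genes step down from 0.69 to −0.62, whereas those of the members are 0.71, −0.0039, 0.12, −0.52 and −1.12 from the shortest bin to the longest. Gins2 lies well above and Pole below the median of its bin.

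When the trend with transcript length was removed in each library, 1 member rose and 1 fell, against 2.45% and 1.83% of all genes. These were Gins2, with a length-adjusted log2 fold change of 1.23 (adjusted p = 0.037), and Pole, with −0.79 (adjusted p = 0.037). In that edgeR fit 5 members were higher and 7 lower at an unadjusted p under 0.05, against 12 and 7 in the main fit. Leaving out single irradiated libraries, added after the data were seen, ended the call of Pole in each case, with the log2 fold change of Pole between −0.858 and −0.751, and that of Gins2 without replicate 1 or 2. These fits called few genes of any kind: 1 higher and 1 lower of 13975 without replicate 1, 1 and 2 of 13936 without replicate 2, and 116 and 87 of 13858 without replicate 3. The median of the members became −0.07, against 0.04 over all genes. This adjustment removes any trend with length, technical or biological. Pcna and Rpa2 remained higher in all irradiated libraries, with length-adjusted log2 fold changes of 0.38 and 0.48 (adjusted p = 0.182 and 0.116), and Rpa3 at 0.59 (adjusted p = 0.172). Rfc3 and Rfc4 were at 0.02 and −0.03, and Gins1 at 0.23 (adjusted p = 0.522). On the side of the genes that fell, Mcm10 kept most of its change at −0.59 (adjusted p = 0.073), as did Pold1 at −0.53 (adjusted p = 0.103), while Pola1 was at −0.27 (adjusted p = 0.275), Rfc1 at −0.42 (adjusted p = 0.138) and Rrm1 at −0.31 (adjusted p = 0.184). Counting libraries on the length-adjusted scale, 7 members lay above both controls in all irradiated libraries and 14 below, against 26.8% and 19.9% of all genes.

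**Figure D4:**
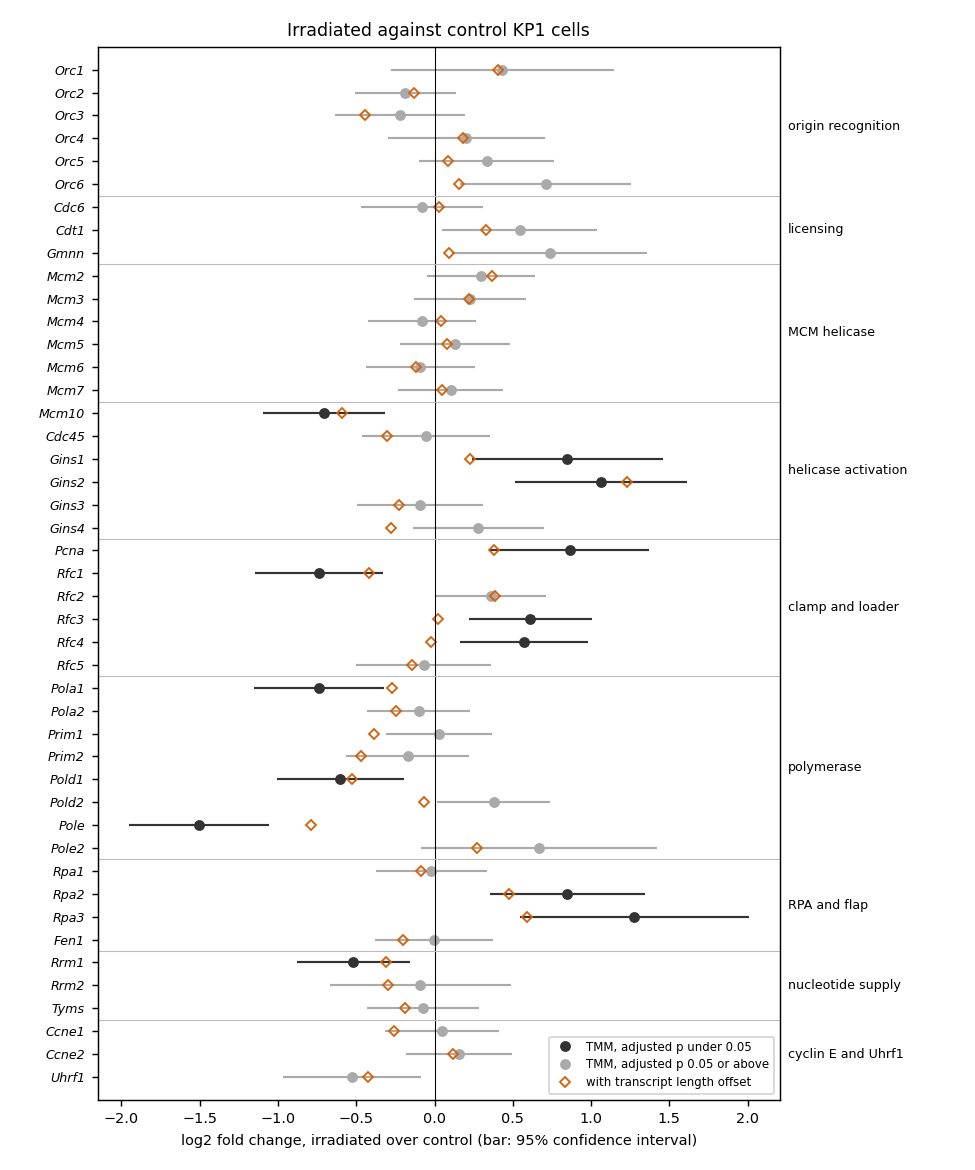
Log2 fold change of each replication gene with its 95% confidence interval from edgeR (dark, adjusted p under 0.05; grey, 0.05 or above) and, as open diamonds, the value after removal of the trend with transcript length. The diamonds of Rfc3 and Rfc4 lie near 0, that of Pole moves from −1.51 to −0.79, and that of Gins2 lies at 1.23.

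Pole had an adjusted p under 0.05 in 18 of the 19 alternatives and Gins2 in 16 of them, whereas Rrm1 had it in 7, Rfc4 in 9 and Gins1 in 10. Single libraries decided many of the other calls, among the members as among all genes. Without control replicate 2, which leaves 1 control, 0 members were higher and 1 lower, against 0.657% and 1.23% of all genes. Without irradiated replicate 1 there were 0 and 4, against 6.08% and 6.58%, and without irradiated replicate 2 there were 1 and 1, against 4.94% and 6.01%. Without irradiated replicate 3 there were 9 and 4, where 1565 and 1474 of all 13858 genes were higher and lower. Pole fell in each of these fits. Without control replicate 3, which also leaves 1 control, the median log2 fold change of the members was 0.12, against 0.05 over all genes. At an unadjusted p under 0.05 there were 7 higher members without control replicate 2 and 7 without irradiated replicate 1. Under the replicate block, which uses the numbers 2 and 3 shared by both groups, 2 members rose and 1 fell, namely Gins2, Rpa3 and Pole, against 4.18% and 3.43% of all genes. Irradiated replicate 1 has no control with its number, so it did not bear on the fold changes of this fit.

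**Figure D5:**
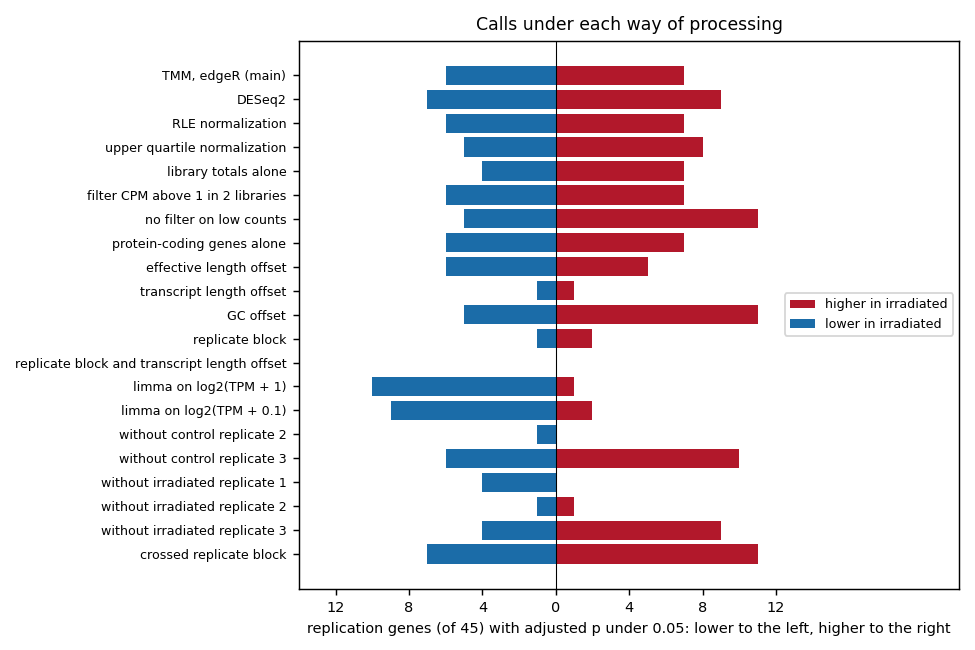
Number of the 45 replication genes higher (red, to the right) or lower (blue, to the left) in irradiated cells at an adjusted p under 0.05 under each way of processing, including each library left out in turn. The counts range from 0 and 0 with the replicate block and transcript length offset to 11 higher with the GC offset, without a filter and with the crossed replicate block, and 10 lower with limma on log2(TPM + 1).

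Of 58 other replication and S-phase genes, all of which were tested, 5 rose and 14 fell in edgeR, against 12.7% and 13% of all genes. Without irradiated replicate 1 there were 1 and 11, against 6.08% and 6.58% of all genes. Without irradiated replicate 2 there were 1 and 10, against 4.94% and 6.01%. Their median log2 fold change was −0.23, against 0.05 for the members. With the trend with transcript length removed, these medians were closer together, at −0.12 and −0.07. Among the kinases and origin firing factors Recql4, a helicase needed for origin firing, and Ticrr, which works with TopBP1 in origin firing, fell by 0.96 and 1.44 on the log2 scale (adjusted p = 0.0091 for both). Of the genes that protect forks, Chtf18, of an alternative clamp loader, and Clspn, a mediator of the replication checkpoint, fell by 1.00 and 1.11 on the log2 scale (adjusted p = 0.0090 and 0.0091). Top2a, the topoisomerase that untangles daughter strands, fell from 1617 and 1492 CPM to 688, 500 and 653 CPM (log2 fold change −1.34, adjusted p = 0.0081). In contrast Pold4, the smallest subunit of polymerase delta, rose from 1.72 and 2.33 CPM to 9.75, 7.08 and 7.65 CPM and was the only one of the 58 past the study's thresholds (log2 fold change 2.01 ± 0.33 (SE), adjusted p = 0.0090).

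Pole3, a small subunit of polymerase epsilon, rose as well (log2 fold change 0.72, adjusted p = 0.029), while Pole4 was at 0.61 (adjusted p = 0.051). Pole3 and Pole4 were named after their values were seen. In nucleotide supply Cad, the enzyme that starts pyrimidine synthesis, fell by 1.18 on the log2 scale (adjusted p = 0.011), and Dut, which keeps uracil out of DNA, rose by 0.78 (adjusted p = 0.047). Among chromatin assembly and S-phase genes Dnmt1, the maintenance methyltransferase, and E2f8, a repressor of E2F targets, fell by 0.85 and 0.91 (adjusted p = 0.010 and 0.017). After the trend with length was removed, 0 of the 58 were higher (4 at an unadjusted p under 0.05) and 5 lower in edgeR, namely Recql4, Dscc1, Chtf18, Lig1 and Top2a, and Pold4 had a log2 fold change of 1.39 (adjusted p = 0.050).

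As a reference for another cell cycle phase, 7 of 20 G2/M genes fell and 0 rose in edgeR, against 13% and 12.7% of all genes. Their median log2 fold change was −0.30, and 6 of the 20 lay above 0. At an unadjusted p under 0.05 there were 10 and 1. In DESeq2 there were 9 and 1, where 2291 and 2406 of all 14099 genes fell and rose. The genes with the smallest p, Cenpe and Cenpf of the kinetochore, and the proliferation marker Mki67 fell by 2.004, 1.80 and 2.57 on the log2 scale (adjusted p = 0.0081 for each). After length adjustment 4 of the 20 were called lower, against 1.83% of all genes. These were Cenpe, Cenpf, Mki67 and Ttk, the last with 2706 bases and a length-adjusted log2 fold change of −0.84 (adjusted p = 0.031). Cenpe, Cenpf and Mki67 are among the longest genes named here, at 7894, 10975 and 10058 bases. The median of the 20 genes was −0.33 after length adjustment, against 0.04 over all genes. In that edgeR fit 10 of them were lower and 0 higher at an unadjusted p under 0.05.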

How the data were processed

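The authors quantified the reads with Salmon (0.8.2 in the submitters' processing notes, which also list DESeq2 1.22.2) on mm10. The files the authors deposited hold expected counts of each transcript, unscaled, the transcript's TPM, which sums to a fixed total per library, and its length and effective length in bases. Strandedness, aligner index and annotation release are not given in the sources used here.

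Transcript identifiers were matched to GENCODE M21 on GRCm38 (112841 of 113116, 99.76%), and counts were summed to symbols and rounded. The main test was edgeR 4.0.16 (R 4.3.3) with its quasi-likelihood test after filterByExpr and TMM, with adjustment by Benjamini and Hochberg's method (Benjamini-Hochberg) over 14099 genes and no block. For length and GC adjustment a spline (5 degrees of freedom) was fitted in each library and used as an offset. Alternatives were DESeq2 1.42.0, limma 3.58.1 on log2(TPM + 1) and log2(TPM + 0.1), other normalizations and filters, effective length, the replicate block and each library left out. Standard errors were derived from edgeR's test, as the absolute log2 fold change divided by the square root of the F statistic. Confidence intervals rest on these standard errors and t quantiles. Python 3.11.15, pandas 2.3.3, numpy 2.4.6 and matplotlib 3.10.9 prepared tables and plots.

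All members are described. Values per library are given for members with an adjusted p under 0.05 and for the extremes of each role. Of the other lists, the 2 genes with the smallest p in each subgroup and those past the study's thresholds are named. The members were chosen by name and not by their values, but they, the lists and the tests were chosen with earlier results of these data known. Protein sequences were not used here.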

Additional observations from a re-analysis of the deposited data

How the results depend on the processing

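The main counts were 7 members higher, 6 lower and 1 past the study's thresholds, and 5 higher and 14 lower among the other replication genes. DESeq2 gave 10 higher other genes, where 2406 of all 14099 genes were higher. With upper quartile normalization 0 members passed the study's thresholds and 9 other genes were higher, as were 2079 of all 14099 genes. With library totals alone 0 members passed the thresholds. Without a filter on low counts 11 members were higher, 0 passed the study's thresholds and 9 other genes were higher, where 2540 of all 20528 genes were. Under the effective length offset 0 members passed the thresholds and 3 other genes were higher, as were 1484 of all 14099 genes. The GC offset gave 11 members higher and 2 past the thresholds.

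The transcript length offset gave 1 member higher, 1 lower and 0 past the thresholds, and 0 other genes higher and 5 lower. The replicate block gave 2 members higher and 1 lower, with 1 other gene higher and 6 lower. Numbers shared by the groups did not mark a common culture in the labels. In every fit with a block, irradiated replicate 1 stood alone in its block and did not bear on the fold changes. Across genes, the log2 CPM difference of replicate 2 minus replicate 3 in control libraries correlated at −0.335 with that in irradiated libraries. The replicate block with the transcript length offset gave 0 members higher, 0 lower and 0 past the thresholds (1 and 7 members at an unadjusted p under 0.05), a median of −0.11 for the members, and 0 other genes higher and 2 lower. That fit called 57 of all 14099 genes higher and 53 lower. The crossed replicate block, chosen after the data were seen, gave 11 members higher, and 13 other genes higher and 26 lower. It called many genes of any kind, 3045 higher and 2682 lower of 14099. limma on log2(TPM + 1) gave 1 member higher and 10 lower with a median of −0.27, and 1 other gene higher and 27 lower. On log2(TPM + 0.1) there were 2 members higher, a median of −0.28, and 1 other gene higher and 27 lower.

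Leaving out each library gave 0 to 10 members higher, 0 to 6 lower, 0 to 2 past the thresholds, a median of −0.11 to 0.12, and 0 to 8 other genes higher and 0 to 13 lower, including the length offset without each irradiated library, which was added after the data were seen. The log2 fold change of Rfc4 turned to −0.026 under the transcript length offset and to −0.080 with the replicate block added, and to −0.0772 and −0.020 under that offset without irradiated replicates 1 and 2. The log2 fold change of Rfc3 turned to −0.066 with the block and length offset, and to −0.0568 under the length offset without irradiated replicate 1. The other 11 of the 13 members called kept their direction under every alternative run. The cause of these differences was not tested. With 2 controls and 3 irradiated libraries an exact permutation test cannot go below 0.1, and Orc1, at 139 to 240 reads, is the member most limited by depth.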
